A study of Homo sapiens with 17 samples.

Results

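The histone variant H2A.Z (H2AZ in the labels) was compared with the acetylation of histone H3 at lysine 27 (H3K27ac) in HCC1954, an established human line derived from a HER2-positive breast tumour. All 4 libraries came from the NC1235 arm: 2 chromatin immunoprecipitation and sequencing (ChIP-seq) libraries of H2AZ and 2 of H3K27ac. The cells had been transfected with antisense oligonucleotides and were fixed 72 hours later, per the labels' protocols. What NC abbreviates is not given, and the labels do not say whether replicates came from separate cultures, so p-values measure the spread between these libraries only. The series has 17 samples and also holds the Si1235 arm, with the series title naming the long non-coding RNA LINC01235. Merging the peaks of the 4 lists gave 68536 regions, against 265098 regions over all 15 peak lists. A site was assigned to a mark when both libraries of that mark had a peak there, and it was called H2AZ alone or H3K27ac alone when neither library of the other mark did. Sites with a peak in only 1 library of a mark were called mixed.

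H2AZ replaces canonical H2A in nucleosomes next to transcription starts and at enhancers, and it is deposited by the SRCAP and TIP60-p400 chromatin remodelers. It is found at active genes and also at silent developmental genes held by Polycomb. H3K27ac is written mainly by the acetyltransferases CBP and p300 and marks active promoters and enhancers.

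The H2AZ lists held 51229 and 46554 peaks on chromosomes 1 to 22 and X, and the H3K27ac lists 44836 and 48391. The number of peaks did not separate the marks (exact two-sided permutation test, p = 0.667, n = 2 libraries each). The median H2AZ peak spanned 678 bp in replicate 1 and 611 bp in replicate 2, while the median H3K27ac peak spanned 1098 and 956 bp. Both H2AZ libraries were thus narrower than both H3K27ac libraries, with means of 644.5 ± 47.4 against 1027 ± 100.4 bp (SD, n = 2), a ratio of 0.628. The exact two-sided permutation p was 0.33, the smallest that 2 libraries against 2 allow. Peaks of at least 2 kb made up 5.63 ± 1.40% of H2AZ peaks and 24.7 ± 1.60% of H3K27ac peaks. H2AZ peaks covered 45.5 and 37.7 Mb, and H3K27ac peaks covered 69.5 and 69.9 Mb. The lists hold no read totals, so the depth of each library is unknown and an absent peak means only that none was called.

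Promoters were the 2 kb windows reaching 1 kb to each side of the outermost listed start of 27195 protein-coding and lncRNA genes. Both marks lay at 11356 promoters (41.8%), H2AZ alone at 1876 (6.90%), H3K27ac alone at 435 (1.60%) and neither at 12563, with 965 mixed. H3K27ac promoters therefore rarely lacked H2AZ: 96.3% of promoters with H3K27ac in both libraries also had H2AZ in both, counted over the sites that were not mixed. In the other direction, 85.8% of H2AZ promoters had H3K27ac. Protein-coding genes had both marks at 8826 of 15812 promoters, H2AZ alone at 1278 and H3K27ac alone at 169. Among 11383 lncRNA promoters the counts were 2530, 598 and 266, so lncRNA genes supplied most H3K27ac-alone promoters. Of the 72 H3K27ac-alone genes with several listed starts, 26 had both marks at another start, as did 75 of 454 such H2AZ-alone genes.

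Away from promoters the marks separated more often. Of 51567 distal regions, 11899 held both marks (23.1%), 8965 H2AZ alone, 11650 H3K27ac alone and 19053 were mixed. Thus 57.0% of distal H2AZ regions had H3K27ac and 50.5% of distal H3K27ac regions had H2AZ, again without the mixed regions. Most mixed regions rested on 1 library: 9318 had a peak in a single H2AZ library and no H3K27ac, and 4871 a peak in a single H3K27ac library and no H2AZ. Without H2AZ replicate 2, which has the fewer peaks, the H2AZ-alone count was 15438, since the peaks of replicate 1 then needed no second library. H2AZ-alone regions lay a median of 25.0 kb from the nearest H3K27ac peak of either library, and 4.21% lay within 1 kb of one. H3K27ac-alone regions lay a median of 10.3 kb from the nearest H2AZ peak, with 9.16% within 1 kb.

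The sequences before the starts of 6 genes show how the promoter classes differ in CpG dinucleotides, which are shown in capitals. H2AZ1 encodes the major H2A.Z isoform and ERBB2 the HER2 receptor, and both promoters held both marks. SP5, a Wnt-responsive zinc finger factor, and SOX2, a stem cell and neural factor, held H2AZ alone, while ELF3, an epithelial ETS factor, and LCN2, a secreted siderophore-binding lipocalin, held H3K27ac alone. Each stretch is the 200 bases before the outermost listed start, from RefSeq (GRCh38.p14), 5′ to 3′ on the gene's strand.
H2AZ1 (chr4:99950276-99950475, minus strand): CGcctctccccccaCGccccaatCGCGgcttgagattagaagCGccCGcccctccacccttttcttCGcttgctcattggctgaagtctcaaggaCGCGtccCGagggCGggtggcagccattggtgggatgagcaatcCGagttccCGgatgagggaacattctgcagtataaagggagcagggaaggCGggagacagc
ERBB2 (chr17:39687894-39688093, plus strand): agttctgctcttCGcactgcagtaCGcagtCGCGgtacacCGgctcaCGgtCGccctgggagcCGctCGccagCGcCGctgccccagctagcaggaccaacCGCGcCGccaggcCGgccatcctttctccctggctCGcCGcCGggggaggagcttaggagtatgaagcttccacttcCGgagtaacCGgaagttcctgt
SP5 (chr2:170715137-170715336, plus strand): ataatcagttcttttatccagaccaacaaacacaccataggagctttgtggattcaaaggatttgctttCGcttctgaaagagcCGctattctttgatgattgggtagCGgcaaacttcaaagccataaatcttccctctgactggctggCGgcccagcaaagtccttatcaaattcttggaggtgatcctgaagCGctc
SOX2 (chr3:181711725-181711924, plus strand): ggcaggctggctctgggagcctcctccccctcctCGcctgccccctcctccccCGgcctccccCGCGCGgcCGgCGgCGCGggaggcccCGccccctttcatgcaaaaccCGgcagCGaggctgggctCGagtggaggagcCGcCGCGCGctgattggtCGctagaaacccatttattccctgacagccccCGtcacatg
ELF3 (chr1:202010387-202010586, plus strand): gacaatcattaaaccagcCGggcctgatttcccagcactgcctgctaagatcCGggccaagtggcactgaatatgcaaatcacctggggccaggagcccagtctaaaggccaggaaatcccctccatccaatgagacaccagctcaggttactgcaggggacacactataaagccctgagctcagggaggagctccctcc
LCN2 (chr9:128149253-128149452, plus strand): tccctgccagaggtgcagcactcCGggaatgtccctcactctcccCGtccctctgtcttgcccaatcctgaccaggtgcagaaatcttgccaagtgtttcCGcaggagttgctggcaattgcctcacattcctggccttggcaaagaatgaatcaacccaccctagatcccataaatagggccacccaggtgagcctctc

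The stretches held 14 CpG dinucleotides at H2AZ1, 20 at ERBB2, 5 at SP5, 19 at SOX2, 2 at ELF3 and 3 at LCN2. SP5 has few CpG dinucleotides in the stretch shown, but 17 over its 300 listed bases, an observed to expected ratio of 0.830. Over the 300 listed bases of all 27195 promoters, the median ratio of observed to expected CpG was 0.847 with both marks, 0.764 with H2AZ alone, 0.223 with H3K27ac alone and 0.246 with neither, beside 0.579 for all. A ratio of at least 0.6 was found at 84.5% of both-mark promoters, 69.5% of H2AZ-alone promoters and 10.8% of H3K27ac-alone promoters, against 48.9% of all. H3K27ac without H2AZ thus lay mostly in windows of CpG-poor promoters, and H2AZ without H3K27ac mostly in windows of CpG-rich ones. H3K27ac peaks lay over the start itself at 53.1% and 53.6% of H3K27ac-alone promoters (replicates 1 and 2). The shares were 84.4% and 81.9% at both-mark promoters. The rest of the H3K27ac-alone class rests on peaks elsewhere in the window, and sequence was not compared between these parts. The split was also present among protein-coding genes alone, with median ratios of 0.858, 0.798 and 0.243.

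Short motifs were counted on both strands of the same 300 bases. The ETS-type motif CCGGAAG, which contains a CpG, was found at 20.5% of both-mark promoters but 4.58% of H2AZ-alone and 2.53% of H3K27ac-alone promoters, against 10.6% of all. Both-mark and H2AZ-alone promoters, the 2 CpG-rich classes, thus differed in how often they held this motif. The SP-type motif GGGCGG was found at 70.2%, 63.1% and 20% in the same order (44.6% of all). The TATA motif TATAAA was found at 5.08%, 7.09% and 18.4% (12% of all), and the AP-1 motif TGANTCA at 4.75%, 5.86% and 16.3% (7.69% of all). Promoters with neither mark held TATAAA at 18.9%, a share close to that of H3K27ac-alone promoters, but TGANTCA at 9.99%. CCAAT was found at 36.3%, 28.2% and 35.9% (35.7% of all). A motif match describes these letters only.

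Around the start, the marks differed in their reach downstream. Among both-mark promoters, H2AZ replicate 1 covered 34.2% of promoters at 1000 bp upstream and 34.1% at 1000 bp downstream, and replicate 2 covered 28.8% and 28.9%. H3K27ac covered 36.1% and 51.2% in replicate 1 and 36.3% and 51.1% in replicate 2. At that distance H2AZ cover was even on the 2 sides of the start, and H3K27ac cover was higher downstream in both libraries. Close to the start both marks were higher downstream: at 200 bp upstream and downstream, H2AZ covered 85.4% and 94.0% in replicate 1 and 78.1% and 91.4% in replicate 2.

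At the 7825 both-mark promoters where 1 peak of every library lay over the start (68.9%), the median H2AZ peak reached 834 bp upstream and 832 bp downstream in replicate 1, and 761 and 775 bp in replicate 2. The median H3K27ac peak reached 762 and 983 bp in replicate 1, and 743 and 982 bp in replicate 2. The upstream edges of the marks overlapped between libraries, and the downstream edges did not. H3K27ac reached further downstream than upstream at 62.6% and 63.0% of these promoters, and H2AZ at 49.6% and 51.6%.

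**Figure D1:**
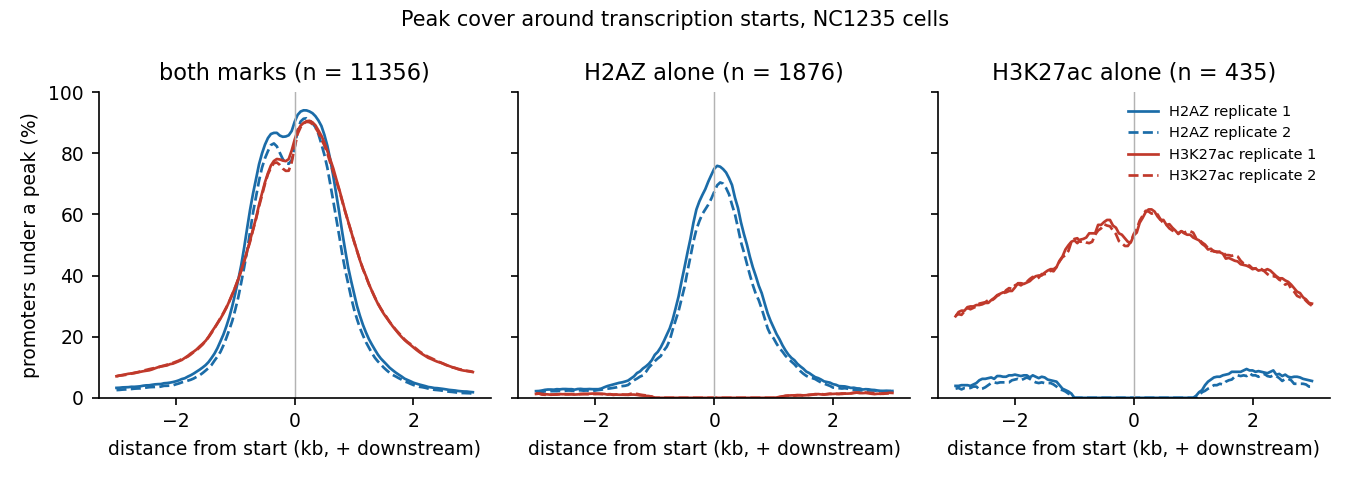
Percentage of promoters under a peak (y axis) by distance from the transcription start (x axis, kb) for H2AZ (blue) and H3K27ac (red), with replicate 1 solid and replicate 2 dashed, in the 3 classes. With both marks, the red lines extend further downstream (51.2% at 1000 bp in replicate 1) than the blue lines (34.1%), and the absence of the other mark within 1 kb in the single-mark panels follows from how those classes were defined.

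Some promoters were under H2AZ peaks over their whole window and had no H3K27ac at all. H2AZ peaks covered the whole window (100% in both H2AZ libraries, 0% in both H3K27ac libraries) at 6 protein-coding genes. These were SLC2A13, a myo-inositol transporter (chr12:40105081-40107081), DPF3, a BAF complex subunit that reads acetylated histones (chr14:72893101-72895101), SP5 (chr2:170714337-170716337), ACHE, the acetylcholine-degrading enzyme (chr7:100895129-100897129), MMP15, a membrane-type metalloproteinase (chr16:58024754-58026754), and GAS1, a Hedgehog co-receptor (chr9:86946506-86948506). LOC124906255 also had wide H2AZ cover, 95.5% and 94.5%, and no H3K27ac. In the fit described below, FZD8, a Wnt receptor, with 100% and 94.3% H2AZ cover and no H3K27ac, and CEMIP, a hyaluronan-degrading protein, with 99.8% and 96.1% H2AZ and 2.25% and 0% H3K27ac, followed the same 6 genes. Absence of an H3K27ac peak did not mean absence of acetylation: the single NC1235 H3K9ac library covered 100% of the windows of DPF3, SP5, ACHE, MMP15 and GAS1, and 55.9% of that of SLC2A13. In the Si1235 arm, MMP15 carried 28.3% and 12.7% H3K27ac cover and GAS1 11.3% and 12%, while SLC2A13, DPF3, SP5 and ACHE again had none.

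The opposite pattern, full H3K27ac and no H2AZ, was found at more protein-coding genes. Full cover of a 2 kb window is met more easily by the mark with wider peaks. Peaks of at least 2 kb made up 24.7% of H3K27ac and 5.63% of H2AZ peaks. Without the full-cover condition the order was reversed, with 1278 H2AZ-alone and 169 H3K27ac-alone protein-coding promoters. H3K27ac covered 100% of the window in both libraries and H2AZ 0% in both at 38 protein-coding genes. The 8 with the strongest peaks were CHD3, a NuRD remodeler (chr17:7887789-7889789), LOC124900418 (chr19:15833969-15835969), UGT1A6, a glucuronosyltransferase (chr2:233690702-233692702), FXYD3, a sodium pump regulator (chr19:35117000-35119000), LCN2 (chr9:128148453-128150453), DMPK, a serine/threonine kinase (chr19:45781490-45783490), ZMYND8, a bromodomain protein (chr20:47355699-47357699), and ID1, an inhibitor of basic helix-loop-helix factors (chr20:31604289-31606289). In the Si1235 arm, LOC124900418, UGT1A6, FXYD3 and ID1 again lacked H2AZ in both libraries. H2AZ replicate 1 of that arm covered 14.7% of the window at CHD3, 14.2% at LCN2 and 21.6% at DMPK, and ZMYND8 held H2AZ in both libraries (62.6% and 17.1%). Single-library peaks of this kind limit how firmly absence of H2AZ can be stated for 1 gene. H3K36me3, a mark of transcribed gene bodies, covered 87.2% and 85.8% of the LOC124900418 window and 19.6% and 16.6% of that of ID1, and none of the other 6 exceeded 1.05%.

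Cover of each promoter window was then tested between the marks with limma across 14241 promoters, on percentage points, H2AZ minus H3K27ac. H2AZ cover was higher at 4888 promoters (34.3%) and H3K27ac cover at 2945 (20.7%) with Benjamini-Hochberg adjusted p under 0.05, and the median difference was 4.02 points. Class and cover come from the same peaks, so the calls add no support to the classes. A window holds at most 100%, so a difference is in how much of the window lies under called peaks. Where a called peak ends can depend on signal strength and depth. Neither was compared between the marks, so cover does not separate extent from density. Leaving out an H3K27ac library cut the calls to 1893 and 876 (replicate 1) or 1724 and 841 (replicate 2). With windows of 2.5 kb to each side, H2AZ made up 49.2% of the calls instead of 62.4%. In the Si1235 arm, 77.5% of the H2AZ-higher and 64.8% of the H3K27ac-higher promoters were called the same way, where 32.3% and 18.4% of the 14226 tested were called.

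Of 48 developmental transcription factors with a listed start, 24 had neither mark, 14 H2AZ alone, 6 both marks, none H3K27ac alone, and 4 were mixed. Only 23 passed the filter on low cover, and the H2AZ-alone genes passed through H2AZ, so the calls among them say nothing about the list as a whole. H2AZ cover was higher at 19 of these 23, beside 34.3% of all tested promoters. Without H2AZ replicate 1, or without either H3K27ac library, 14 were called.

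SOX2 was covered 94.9% and 87.7% by H2AZ and 0% in both H3K27ac libraries (difference 91.3 points, adjusted p = 0.00137). DLX2, a forebrain and branchial arch factor, had 91.1% and 92.2% H2AZ against 14.4% and 0% H3K27ac (84.4 points, adjusted p = 0.00405). The libraries of the marks did not overlap at either gene. GBX2, SIX2, EOMES, LHX2, ATOH1, ISL1 and POU4F1 also held H2AZ alone, with mean H2AZ covers from 54.5% at POU4F1 to 82.9% at GBX2. Some factors were also widely acetylated. GATA6 had 100% H2AZ in both libraries against 84.2% and 78.5% H3K27ac, and OTX1 had 95.9% and 87.1% against 92.1% and 85.7%, where the difference of 2.60 points did not pass (adjusted p = 0.65).

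The HOX genes, which pattern the body axis, were split. Of 20 with a listed start, HOXA11, HOXD1 and HOXD11 had H2AZ alone, 4 had both marks and 11 neither. H2AZ cover was higher at 4 of the 9 that passed the filter, some of them through H2AZ only. Of all tested promoters, 34.3% had higher H2AZ and 20.7% higher H3K27ac cover, and no difference from these shares is read from 9 genes. HOXA13 had 100% and 89.7% H2AZ against 0% and 18.3% H3K27ac (85.7 points, adjusted p = 0.00768), and HOXD11 had 84.5% and 76.3% against 0% in both (80.4 points, adjusted p = 0.00191). HOXA9 went the other way in value, with 58.4% and 81.3% H2AZ against 100% in both H3K27ac libraries, a difference that did not pass (-30.1 points, adjusted p = 0.0757). H3K27ac cover was higher at 0 of the 9 by limma and at 1 at an unadjusted p under 0.05, and at 3 without either H2AZ library. HOXC4 and HOXC5 share a listed start and count as 1 site.

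Ribosomal protein genes, which are transcribed at high levels in growing cells, held both marks at 55 of 58 promoters. H2AZ peaks covered less of most of these windows than H3K27ac peaks. H3K27ac cover was higher at 38 of 58 and H2AZ cover at 3, beside 20.7% and 34.3% of all tested promoters. The median difference was -28.5 points. RPS16, of the small subunit, had 31.8% and 0% H2AZ against 87.8% and 87.9% H3K27ac (-71.9 points, adjusted p = 0.0247). RPL27A, of the large subunit, had 28% and 28.2% against 94.1% and 100% (-68.9 points, adjusted p = 0.00191). The opposite direction was seen at RPS4X, with 73.7% and 69.1% H2AZ against 51.9% in both H3K27ac libraries (19.5 points, adjusted p = 0.0136), and at RPL6, with 14.7% and 12.9% against 0%. Without H3K27ac replicate 1 or 2 the count fell to 8 or 5 of 58, with medians of -27.9 and -29.7 points. In the Si1235 arm 40 of 57 had higher H3K27ac cover, beside 18.4% of all promoters tested in that arm.

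Interferon-response genes showed the same direction in these libraries. Of 26 tested, H3K27ac cover was higher at 17 and H2AZ cover at 3, beside 20.7% and 34.3% of all tested promoters. The median difference was -24.6 points. IRF9, a subunit of the interferon-activated factor ISGF3, had 11.6% and 0% H2AZ against 100% in both H3K27ac libraries (-94.2 points, adjusted p = 0.00244). BST2, the antiviral tetherin, had 26.3% and 0% against 100% in both (-86.9 points, adjusted p = 0.0116). RSAD2, the antiviral enzyme viperin, was an exception with 88.1% and 79.4% H2AZ against 35.6% and 42.2% H3K27ac (44.8 points, adjusted p = 0.0086), as was HERC5, an ISG15 ligase, with 92.5% and 94.3% against 47.6% and 52.9% (43.1 points, adjusted p = 0.00414). Without H3K27ac replicate 1 the H3K27ac-higher count was 2, and without replicate 2 it was 0 by limma (10 at an unadjusted p under 0.05), with medians of -24.9 points in both cases.

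**Figure D2:**
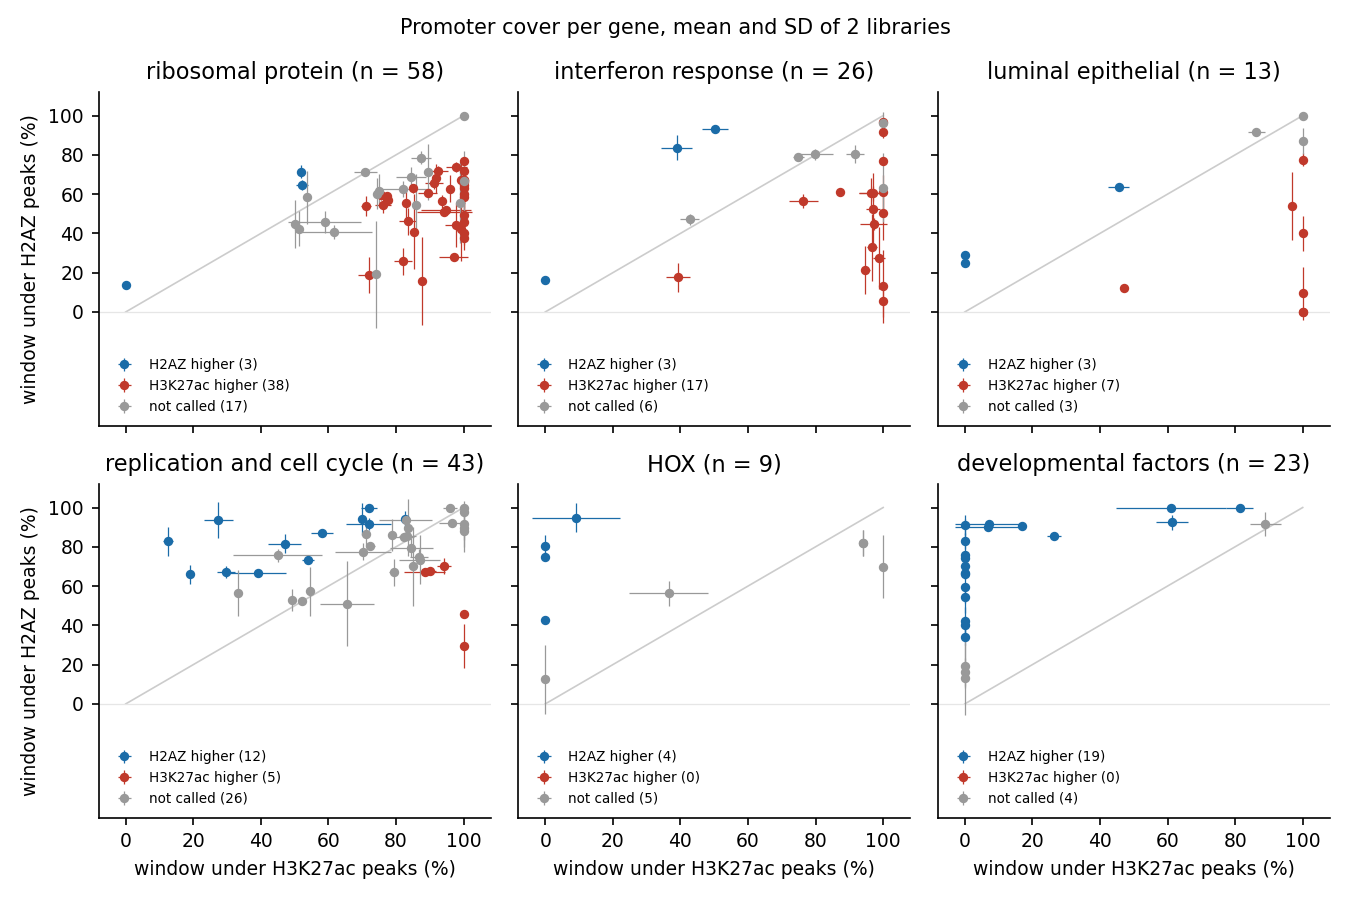
Percentage of each promoter window under H3K27ac peaks (x axis) and under H2AZ peaks (y axis) for the tested genes of 6 lists. Points are means and bars SD of 2 libraries, colours give the limma call, and the grey diagonal marks equal cover. Ribosomal protein genes lie mostly below it (38 of 58 called H3K27ac higher, beside 20.7% of all tested promoters). The 23 developmental factors that passed the filter on low cover lie mostly above it, but the H2AZ-alone genes among them passed through H2AZ. Their position (19 called H2AZ higher, beside 34.3% of all tested promoters) therefore says nothing about the whole list.

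Breast epithelial genes included some of the widest gaps in favour of H3K27ac. Among 13 tested luminal genes, H3K27ac cover was higher at 7 and H2AZ cover at 3 (median -22.4 points), beside 20.7% and 34.3% of all tested promoters. ELF3 had 0% H2AZ and 100% H3K27ac in both libraries of each mark, and KRT8, a simple-epithelium keratin, had 0% and 0.200% H2AZ against 100% in both (-99.9 points, adjusted p = 0.000702). CLDN4, a tight junction protein, had 19.1% and 0% against 100% in both (-90.5 points, adjusted p = 0.00584). PGR, the progesterone receptor, and TFAP2B, an AP-2 factor, held H2AZ alone, with H2AZ covers of 27.3% and 30.2% at PGR and 23.6% and 26.2% at TFAP2B. Of 9 tested basal genes, H3K27ac cover was higher at 5, beside the same 20.7% of all tested promoters. These 5 included KRT5, a basal keratin, and SFN, the 14-3-3 sigma protein, both at 0% H2AZ and 100% H3K27ac. OXTR, the oxytocin receptor, held H2AZ alone at 42.5% and 42.3%. Without either H3K27ac library the H3K27ac-higher counts were 3 of 13 and 3 of 9.

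ERBB2 itself held both marks at similar extent, with 90.6% and 92.6% H2AZ against 88.1% and 84.5% H3K27ac (5.32 points, adjusted p = 0.101). Of the breast markers ERBB2 and KRT8 had a listed start, and both were acetylated in both libraries. Among markers of other cell types with a listed start, PTPRC (leukocytes), TEK (endothelium) and PDGFRB (fibroblasts) had no peak of either mark in any of the 4 libraries. The monocyte gene CD14 had 22.1% and 41.9% H3K27ac cover and no H2AZ.

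Replication and cell-cycle genes held both marks at all 43 promoters of the list. H2AZ cover was higher at 12 and H3K27ac cover at 5, beside 34.3% and 20.7% of all tested promoters. The median difference was 3.62 points, near that of all promoters, so the counts are not read as particular to the list. MCM10, a replication initiation factor, had 77.7% and 87.9% H2AZ against 11.6% and 13.6% H3K27ac (70.2 points, adjusted p = 0.00328). CCNE1, the G1/S cyclin E1, had 100% and 87.2% against 30.4% and 24.4% (66.2 points, adjusted p = 0.00628). The widest H3K27ac excess was at the inhibitors of cyclin-dependent kinases: CDKN1B had 37.3% and 21.5% H2AZ and CDKN1A 46.2% and 45.7%, both with 100% H3K27ac in both libraries (-70.6 and -54.0 points, adjusted p = 0.00686 and 0.00168). Without H3K27ac replicate 1 or 2, the H2AZ-higher count was 3 or 1 and the H3K27ac-higher count 2 or 1.

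The genes that deposit, remove or read the marks were nearly all marked themselves. All 19 genes of the H2AZ machinery held both marks. H2AZ cover was higher at 3 and H3K27ac cover at 2 (median -2.70 points), beside 34.3% and 20.7% of all tested promoters. H2AZ1 had 100% and 80.9% H2AZ against 95.7% and 100% H3K27ac (-7.40 points, adjusted p = 0.471), and H2AZ2, the second H2A.Z gene, had 85.3% and 67.2% against 83.6% and 84.3% (-7.70 points, adjusted p = 0.433). At both genes the libraries of the marks overlapped. DMAP1, a subunit of SRCAP and TIP60 complexes, had 78.5% and 64.9% against 38.0% and 35.7% (34.8 points, adjusted p = 0.0209). KAT5 went the other way (-16.9 points, adjusted p = 0.0136). So did SRCAP in value, with a difference that did not pass (-37.7 points, adjusted p = 0.106).

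Among 22 genes of the acetylation machinery, 21 held both marks, H2AZ cover was higher at 3 and H3K27ac cover at 6 (median 5.20 points), beside 34.3% and 20.7% of all tested promoters. KAT2B, the acetyltransferase PCAF, had 100% H2AZ in both libraries against 35.2% and 22.7% H3K27ac (71.1 points, adjusted p = 0.00457). HDAC9, a class IIa deacetylase, was the H2AZ-alone member, with 53.7% and 59.2%. BRD2, a bromodomain reader, had 67.6% and 43.5% H2AZ and EP300, the acetyltransferase p300, 72.4% and 64.6%, both with 100% H3K27ac in both libraries (-44.5 and -31.5 points, adjusted p = 0.0389 and 0.00896). Without either H3K27ac library the H3K27ac-higher count was 0 by limma in both lists, and 1 or 2 at an unadjusted p under 0.05.

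Of 24 genes of other organs with a listed start, 19 had neither mark, as had 7 of 12 immune, 4 of 6 endothelial and 5 of 12 mesenchymal genes, beside 46.2% of all promoters. The last 3 lists are small, and no difference from that share is read from them. The marked ones included LOX, a collagen-crosslinking oxidase (H2AZ 68.8% and 69.9%, H3K27ac 0% in both), KDR, the endothelial VEGF receptor (60.3% and 60.7% against 0%), and GAD1, the GABA-synthesising enzyme (100% in both against 51.4% and 29.6%). H2AZ cover was higher at each of these 3 (69.3, 60.5 and 59.5 points; adjusted p = 0.00073, 0.000762 and 0.0175). SPARC, a matrix glycoprotein, had 24.3% and 0% H2AZ against 100% and 93.2% H3K27ac (-84.5 points, adjusted p = 0.0113).

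Peak widths differed with the partner mark. At promoters, the median H2AZ peak was 1481 and 1218 bp (replicates 1 and 2) with H3K27ac and 929.5 and 776.5 bp without. Distal H2AZ peaks were 750 and 600 bp with H3K27ac and 539 and 450 bp without. Distal H3K27ac peaks were 1355 and 1277 bp with H2AZ and 649 and 642 bp without. Each mark was thus wider beside the other in both of its libraries. A wider peak more easily touches a peak of the other mark, so the class definition itself favours this difference. How much of it follows from the definition was not tested.

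Where the peaks overlapped, their centres were a median of 237 to 251 bp apart over the 4 pairs of libraries (mean 243.3 ± 6.64 bp). The same distance between replicates was 66 bp for H2AZ and 60 bp for H3K27ac, so the offset between marks exceeded that between libraries of 1 mark. Offsets were larger at promoters (269 to 283.3 bp) than at distal sites (214.5 to 226.5 bp), and these ranges did not overlap. As a fraction of the distance from the centre to the edge of the overlapping H3K27ac peak, the median offsets were 0.335 to 0.360 at promoters and 0.351 to 0.363 at distal sites, and these ranges overlapped. The 4 pairs share libraries and are not independent. From the deposited summits the offset was 184.5 bp, for which no distance between replicates is given. Distal H2AZ peaks lay wholly inside the H3K27ac peak in 58.2 to 64.3% of overlaps, and promoter H2AZ peaks in 37.1 to 45.0%. The width of H2AZ relative to the overlapping H3K27ac peak was 0.747 to 0.905 at promoters and 0.421 to 0.535 at distal sites.

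**Figure D3:**
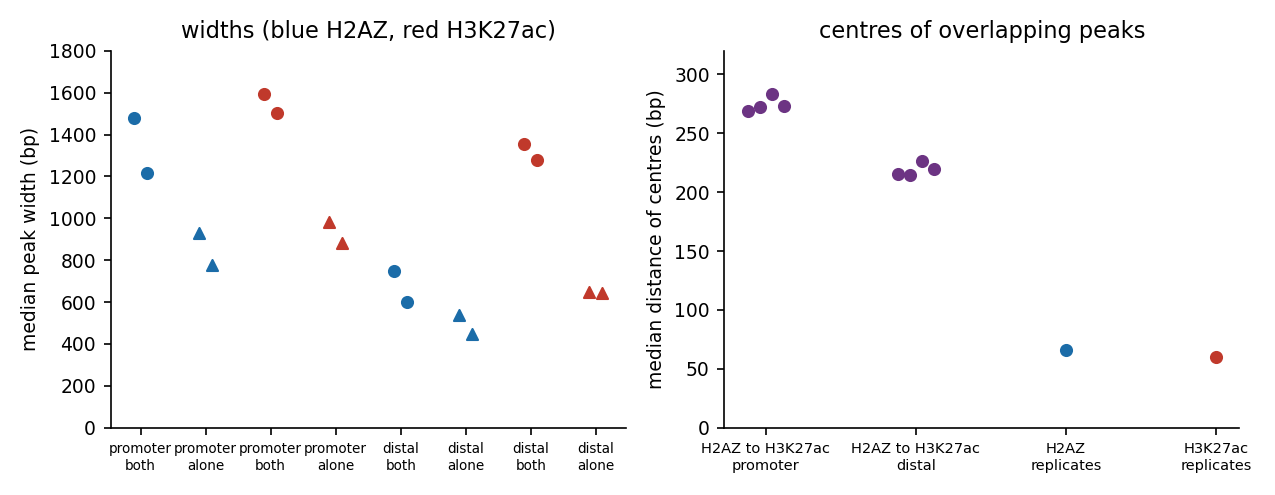
Left, median peak width (bp) of each library at promoters and distal sites, with circles for peaks beside the other mark and triangles for peaks alone, 2 libraries each. Right, median distance between centres of overlapping peaks (bp) for 4 pairs of H2AZ and H3K27ac libraries and for the replicates of each mark, where the marks are 214.5 to 283.3 bp apart and the replicates 60 and 66 bp.

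Stronger H3K27ac peaks more often held H2AZ. Ranked by the authors' fold enrichment within each H3K27ac list, a value used only within its own list, 21.7% (replicate 1) and 19.8% (replicate 2) of distal peaks in the lowest decile had H2AZ in both libraries. The share was 72.7% and 72.0% in the highest decile. Promoter peaks went from 56.3% in the lowest decile to 94.7% in the highest in replicate 1. The strongest distal H3K27ac peaks still lacked H2AZ in both libraries in 16.3% of cases (replicate 1). By width, 23.9% of distal H3K27ac peaks under 500 bp and 61.0% of those over 4 kb had H2AZ in both libraries (replicate 1). A longer peak has more length in which such an overlap can fall. Peaks over 4 kb carried several H2AZ peaks in 36% of cases, and H2AZ covered on average 17.0% of their length. In the reverse direction, 38.0% of distal H2AZ peaks in the weakest decile and 72.4% in the strongest had H3K27ac (replicate 1).

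**Figure D4:**
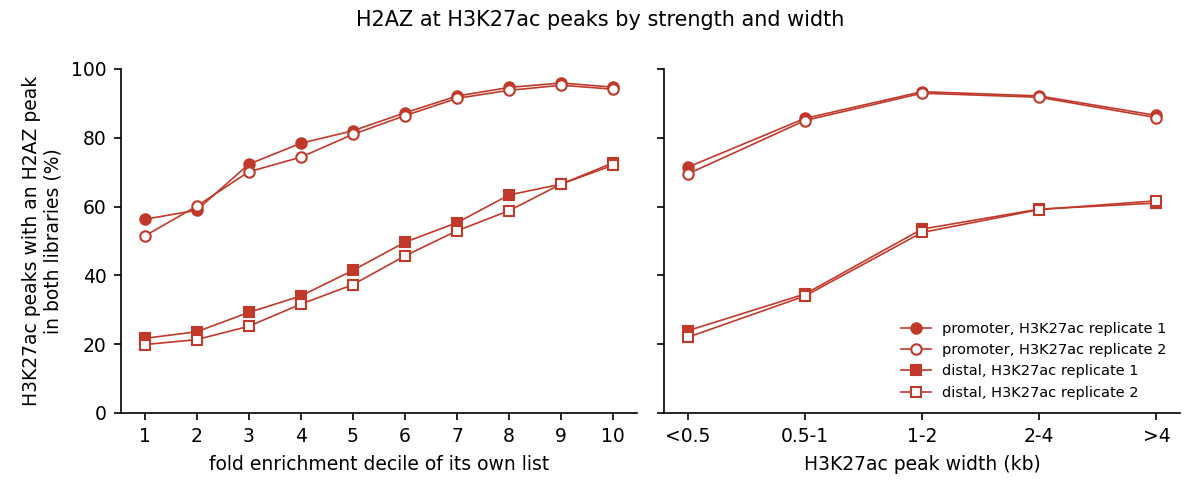
Percentage of H3K27ac peaks with an H2AZ peak in both libraries (y axis) by deciles of fold enrichment within the list (left) and by peak width in kb (right), for promoter peaks (circles) and distal peaks (squares), with filled symbols for H3K27ac replicate 1 and open ones for replicate 2. The distal share goes from 21.7% to 72.7% across deciles in replicate 1, and promoter peaks lie above distal peaks in every bin.

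Individual distal regions illustrate the 3 classes. The strongest with both marks lay 4.34 kb from the start of ITPA (chr20:3208407-3210664), 46.1 kb from ZNF692 (chr1:248905219-248907590), 1.28 kb from APBB2 (chr4:41215819-41217292) and 7.79 kb from MDM4 (chr1:204505540-204508613). The APBB2 region thus lay just outside the 1 kb reach of the promoter window. MDM4 encodes a p53 inhibitor and ITPA a nucleotide pyrophosphatase. At the ITPA region the fold enrichment was 40.5 and 35.5 in the H2AZ lists and 71.8 and 60 in the H3K27ac lists. All 4 held both marks in the Si1235 arm too.

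The strongest H2AZ-alone regions lay 296 kb from the start of DCUN1D1, a cullin neddylation factor (chr3:182681846-182684501), 6.10 kb from NRARP, a Notch pathway inhibitor (chr9:137294930-137296172), within a gene 25.2 kb from the start of MIA3, a secretory cargo receptor (chr1:222616977-222619176), and 27 kb from MASP1, a complement protease (chr3:187318702-187320141). H2AZ fold enrichment at the first was 60.2 and 40.1. H3K9ac covered 67.2 to 83.2% of these 4 regions, and none held H3K36me3. The MIA3 region had both marks in the Si1235 arm, where H3K27ac covered 17.8% and 10.6% of it.

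The strongest H3K27ac-alone regions lay 33.0 kb from ELF3 (chr1:202043551-202049384), 10.7 kb from MAPK11, a p38 kinase (chr22:50281074-50283709), 24.0 kb from MFSD1, a lysosomal transporter (chr3:158760458-158778069, 17612 bp), and 40.2 kb from IFFO2 (chr1:18996836-19000772). H3K27ac fold enrichment at the ELF3 region was 116 and 113. All 4 held H3K27ac alone in the Si1235 arm, where H2AZ cover was 0% in both libraries. H3K36me3 covered 83.5% and 80.8% of the MAPK11 region and none of the other 3. H3K27ac without H2AZ was thus found at the ELF3 promoter and at the 5834 bp region 33.0 kb from it. ELF3 has the nearest protein-coding start to that region, and a link between the 2 was not tested.

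H3K27ac-alone distal regions were placed more often in gene bodies: 73.3% lay within an annotated gene, against 49.6% of both-mark and 44.7% of H2AZ-alone regions. Median distances to the nearest listed start were 25.3, 29.2 and 32.9 kb in the same order. The placement was also present among the regions in the upper part of H3K27ac strength (mean within-list percentile above 50), at 78.1% of 3354 H3K27ac-alone regions and 50.9% of 7127 both-mark regions. The H3K27ac-alone share of distal H3K27ac regions was highest on chromosomes 10 (62.7%), 22 (60.7%) and 16 (59.4%) and lowest on chromosomes 21 (39.3%) and X (39.7%). The X chromosome had the highest H2AZ-alone share of distal H2AZ regions, 49.8%, and chromosome 22 the lowest, 35.8%.

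Libraries that had no part in the classes differed between them. H3K36me3 (2 libraries) overlapped 12.3% and 10.3% of H3K27ac-alone distal regions, 1.09% and 0.807% of both-mark regions and 0.0669% of H2AZ-alone regions in each library. Overlap with H3K36me3 was thus more frequent at distal H3K27ac regions where H2AZ was not called, though most of those regions held none. At promoters the shares were 14.0% and 12.2% with H3K27ac alone, 2.10% and 1.64% with both, 0.160% in each library with H2AZ alone, and 4.80% and 4.08% with neither. The gap was also present after a coarse split by place and strength. Within gene bodies and in the upper part of H3K27ac strength, H3K36me3 overlapped 23.3% and 19.4% of 2618 H3K27ac-alone regions. The shares were 3.06% and 2.23% of 3631 both-mark regions, and the median widths were 2146 and 2308 bp. Strength and position in the gene can still differ between the classes within that part. Outside genes the shares were 1.83% and 1.32% of 3114 H3K27ac-alone regions.

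H3K9ac, another acetylation of active chromatin with 1 library in the arm, overlapped 99.6% of both-mark promoters, 82.2% of H2AZ-alone, 79.8% of H3K27ac-alone and 1.65% of those with neither. H3K9ac peaks covered on average 36.7% of the window at H2AZ-alone promoters and 85.1% at both-mark promoters, so the overlap at the former was partial. At distal regions the shares were 86.4%, 40.2% and 62.4%. Chromatin isolation by RNA purification of LINC01235 (ChIRP, 1 library) gave peaks at 12.3% of both-mark, 11.9% of H2AZ-alone, 14.0% of H3K27ac-alone and 13.0% of neither promoters, with little difference between classes. Distal ChIRP shares were 14.4%, 6.37% and 9.26%, over regions of different median width (1688, 613 and 809 bp), and ChIRP peaks covered 2.58%, 2.58% and 2.46% of their length. With 1 library each, H3K9ac and ChIRP have no replicate check.

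**Figure D5:**
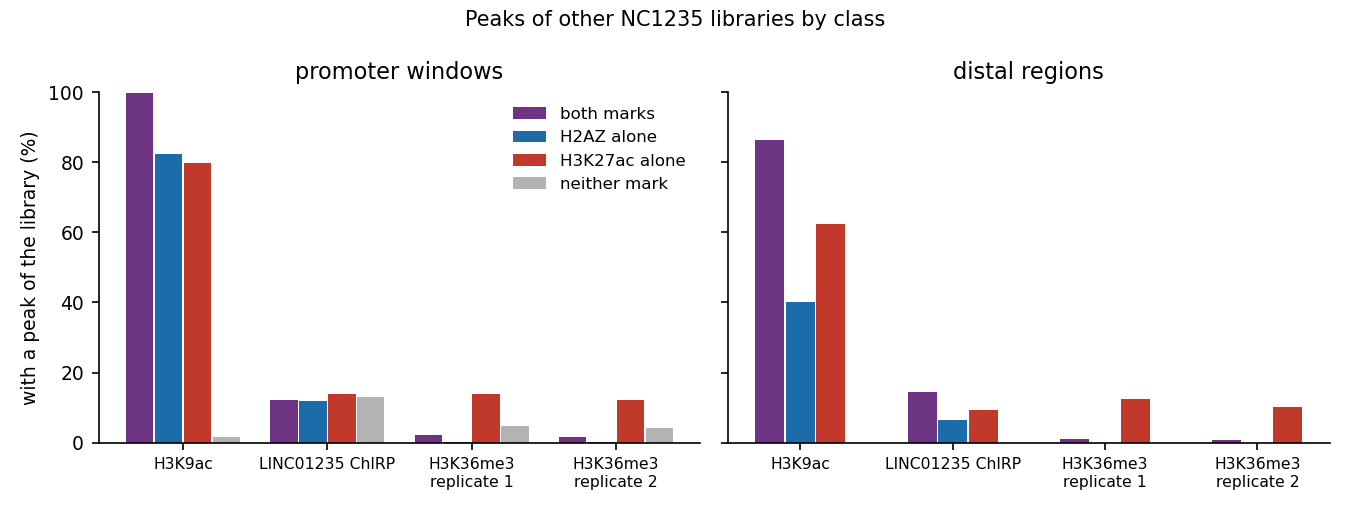
Percentage of promoter windows (left) and distal regions (right) with a peak of the H3K9ac, LINC01235 ChIRP and 2 H3K36me3 libraries of the NC1235 arm (y axis), with bars coloured by class. H3K36me3 bars stand out in the H3K27ac-alone class (12.3% and 10.3% of distal regions), and H3K9ac peaks overlap 82.2% of H2AZ-alone promoters.

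The classes recurred in the Si1235 libraries to different degrees. At promoters, 97.3% of both-mark, 85.3% of H2AZ-alone and 72.4% of H3K27ac-alone genes had the same class there, and none changed from 1 single mark to the other. Most of the H3K27ac-alone promoters that moved became mixed (18.9%). At distal regions 74.8%, 57.2% and 63.8% had the same class. H2AZ peaks were again narrower than H3K27ac peaks in that arm, at 656 ± 46.7 against 997.5 ± 122.3 bp (SD, n = 2; exact two-sided permutation p = 0.33, the smallest possible).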

How the data were processed

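Peak lists (narrowPeak) of each library were used as deposited. Per the submitters' processing notes, Bowtie2 2.2.9, MACS2 and hg38 were used. For MACS2, neither settings nor controls are stated. The authors' lists give each peak's fold enrichment over background (a ratio) and −log10 p and q, with no deposited −log10 q under 2. Peak pileups were whole numbers in the H2AZ lists (100% of 1500 checked per list, tolerance 0.002) and scaled in the H3K27ac lists (1% and 2.33% whole), so fold enrichments were never compared between marks. Depth is unknown.

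Peaks on chromosomes 1 to 22 and X were merged where they overlapped by 1 bp or more. Starts came from the RefSeq promoter table (GRCh38.p14, the same primary coordinates as hg38): 27195 of 38151 protein-coding and lncRNA genes matched, and the rest, including all 1602 on chromosome 8, are not analysed here as promoters. They were used at both gene ends only to keep regions out of the distal class. Where genes had several starts the outermost was taken, and overlapping windows left 23508 separate sites. Distal regions overlapped no window.

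Cover of windows (mean of at least 5% over the 4 libraries) was fitted with limma 3.58.1 (R 4.3.3) without a replicate block, as replicate numbers are not stated to pair samples, with Benjamini-Hochberg adjustment. Promoters with identical cover in replicates had zero variance, which limma offset. The fit was checked before use on simulated, normally distributed cover without bounds and with some variance at every promoter. That check therefore did not address promoters with identical cover in replicates. Other steps used Python 3.11.15, pandas 2.3.3 and scipy 1.17.1.

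Named were the 8 protein-coding genes of largest difference each way, the 8 of highest cover per single-mark class, 4 distal regions per class, up to 2 list members each way, ERBB2, H2AZ1 and H2AZ2. Ties at 100 points were broken by within-list percentile, a choice made after seeing them. One gene that this rule names is not reported here. Other genes were named as list members after seeing their values. The members and gene lists were chosen with earlier results of these data known. Alternatives were stricter q, equal peak numbers, wider windows, minimum overlap, merging within 500 bp, summits, normalization, filters, the block and leaving out each library.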

Additional observations from a re-analysis of the deposited data

How the results depend on the processing

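Promoter and distal class counts stayed within 1.5 times of the reported values under the alternatives run, with 2 exceptions. Adding genes without a listed start at both gene ends, an alternative chosen after seeing the data, gave 698 H3K27ac-alone promoters instead of 435. Leaving out 1 library at a time gave 9413 to 15438 H2AZ-alone distal regions, 1724 to 4304 promoters with higher H2AZ cover and 841 to 3558 with higher H3K27ac cover. In those fits the lone library of a mark is assumed to vary like the other mark's. Windows of 2.5 kb to each side raised the H3K27ac-higher count to 4857. Peaks with −log10 q of at least 5 were wider, at 752.5 bp for H2AZ and 1160.5 bp for H3K27ac, and with equal numbers of top peaks the H2AZ median was 703.5 bp. The difference in width stayed between -311.5 and -453.5 bp when leaving out a library. The offset was 184.5 bp between summits.

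Of 49 genes tested by name, 35 were called, and 14 and 16 calls were lost without H3K27ac replicate 1 and 2. Directions turned at CD74 (-6.73 points), EGFR (-9.77), KAT5 (5.03) and ROBO4 (2.91) with 2.5 kb windows, at ROBO4 (0.325) with the stricter q, and without H2AZ replicate 2 at H2AZ1 and H2AZ2, whose values ranged from -16.9 to 2.15 and from -16.7 to 1.35 over the left-out libraries. The cause was not tested. With a replicate block, 4089 promoters had higher H2AZ and 2429 higher H3K27ac cover. Same-numbered libraries share only a number, and their deviations correlated at 0.026 across 14241 promoters. Depth is unknown, so weak peaks missed in 1 library limit the single-mark classes most.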
